A study of Mus musculus with 6 samples.

Results

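The genes described here build and run the mitotic spindle. They are 55 genes of the spindle, the kinetochore, chromosome condensation and cytokinesis, chosen by name from their known roles, with earlier results of these data known, out of 34745 genes in the deposited table, and all 55 were found there. The RNA came from mouse cortex at postnatal day 8. The 3 Pen-2 cKO samples have the genotype Pen-2 F/F; hGFAP-Cre and the 3 control samples the genotype Pen-2 F/F, so that both groups carried the floxed alleles. *Psenen* encodes PEN-2, which γ-secretase needs to mature and to cleave Notch receptors and other membrane proteins. The hGFAP-Cre transgene drives Cre recombinase from a human GFAP promoter, which is known to be active in the radial glia of the embryonic forebrain and not in astrocytes alone. The transgene and the deletion cannot be told apart, because the labels give Cre for the cKO samples only. The labels number the samples and do not state which animals they came from, so the p-values rest on sample-to-sample spread, which may be technical.

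Mitosis is run by cyclin-dependent kinase 1 with its A- and B-type cyclins. Condensin packs the chromosomes, kinetochores tie them to spindle microtubules, and the spindle checkpoint holds the anaphase-promoting complex until every chromosome is attached. Most of these genes are transcribed in late S, G2 and M phase and are nearly silent in resting cells, so in bulk tissue their RNA tracks dividing cells. In the mouse cortex in the second postnatal week most neurons no longer divide, and the dividing cells are chiefly glial precursors, young glia, microglia and vessel cells. Bulk values cannot tell more dividing cells from more of these transcripts in each.

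Values were in FPKM, fragments scaled for gene length and library depth, with depths, read from the smallest steps between values, of 25129800 to 26817200 fragments in cKO and 20251900 to 24872600 fragments in control libraries. Values of 3 libraries are given in the order of replicates 1, 2 and 3. *Psenen* was 3.56, 3.90 and 4.03 FPKM in cKO cortex, set against 6.35, 6.86 and 7.32 FPKM in control cortex (log2 fold change -0.82, adjusted p = 0.00441). Of 11 postmitotic neuron markers all passed the filter on low values, with sums of 1659 to 1792 FPKM in the cKO libraries and 1983 to 2027 FPKM in the control libraries. In that sum *Tubb3* supplied 1141 ± 45.1 FPKM in cKO and 1404 ± 41.7 FPKM in control cortex (SD, n = 3 each), and the other 10 genes summed to 533 to 637 FPKM in the cKO libraries and 568 to 669 FPKM in the control libraries. Choroid plexus and ependymal markers varied from library to library and were highest in cKO replicate 3, with sums of 333, 190.1 and 901 FPKM in the cKO libraries and 40.6, 111 and 188 FPKM in the control libraries. Nearly all of that was *Ttr*, and the other 9 genes summed to 8.25 to 24.0 FPKM in the cKO libraries and 7.48 to 10.3 FPKM in the control libraries.

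The mitotic genes were higher in cKO cortex almost throughout. Of 53 members that reached 0.5 FPKM in at least 3 libraries, 36 rose and none fell in a limma test on log2(FPKM + 0.1) adjusted over 14147 genes. Over all tested genes 3.67 % rose and 1.87 % fell by the same test (5.53 % in either direction). The median log2 fold change was 0.79 over the tested members and 0.07 over all tested genes, and the quartiles of the members were 0.67 and 0.93. Summed over the 55 genes, the level was 177, 182 and 189 FPKM in cKO cortex, set against 117, 120.2 and 113 FPKM in the control libraries. *Bub3* alone supplied 39.9 to 40.8 FPKM of the cKO sums and 36.2 to 39.7 FPKM of the control sums. Without *Bub3* the sums averaged 142 ± 6.67 FPKM in cKO and 78.8 ± 1.91 FPKM in control cortex (SD, n = 3 each), a ratio of 1.81.

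All 3 cKO libraries lay above all 3 control libraries for 51 of the 53 tested members, against 21.5 % of all tested genes, and for 53 of the 55 members, against 15.6 % of the 23331 genes with any value above 0. In *Pttg1* and *Anln* the groups overlapped. No member had all cKO libraries below all control libraries, which 8.17 % of tested genes had. Relative to the control mean of each gene, the median member was at log2 0.76, 0.77 and 0.87 in the cKO libraries and at -0.00, 0.04 and -0.08 in the control libraries. The increase was thus present in every cKO library, and cKO replicate 3 held the highest value for 28 of the 55 genes. The filter on low values let *Ncapg* and *Prc1* into the test through their cKO values alone, and without them 35 of 51 rose. With no filter all 55 members were fitted, 23 rose and none fell, against 1.38 % of all genes, and the median of the 55 was 0.79.

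With 1 library left out, which leaves a smaller fit, the number of members that passed changed far more than their fold changes did. Over all 14147 tested genes, 519 rose with all libraries. That number was 200, 190 and 330 without cKO replicates 1, 2 and 3, and 189, 135 and 582 without control replicates 1, 2 and 3. Of the members, 10, 11 and 20 rose without cKO replicates 1, 2 and 3, and 15, 11 and 25 without control replicates 1, 2 and 3. Their median log2 fold change stayed between 0.77 and 0.87. No member fell in any of these fits. *Ccna2*, *Mki67*, *Top2a*, *Cdc20*, *Ube2c*, *Kif11* and *Nusap1* were called with each library left out.

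**Figure D1:**
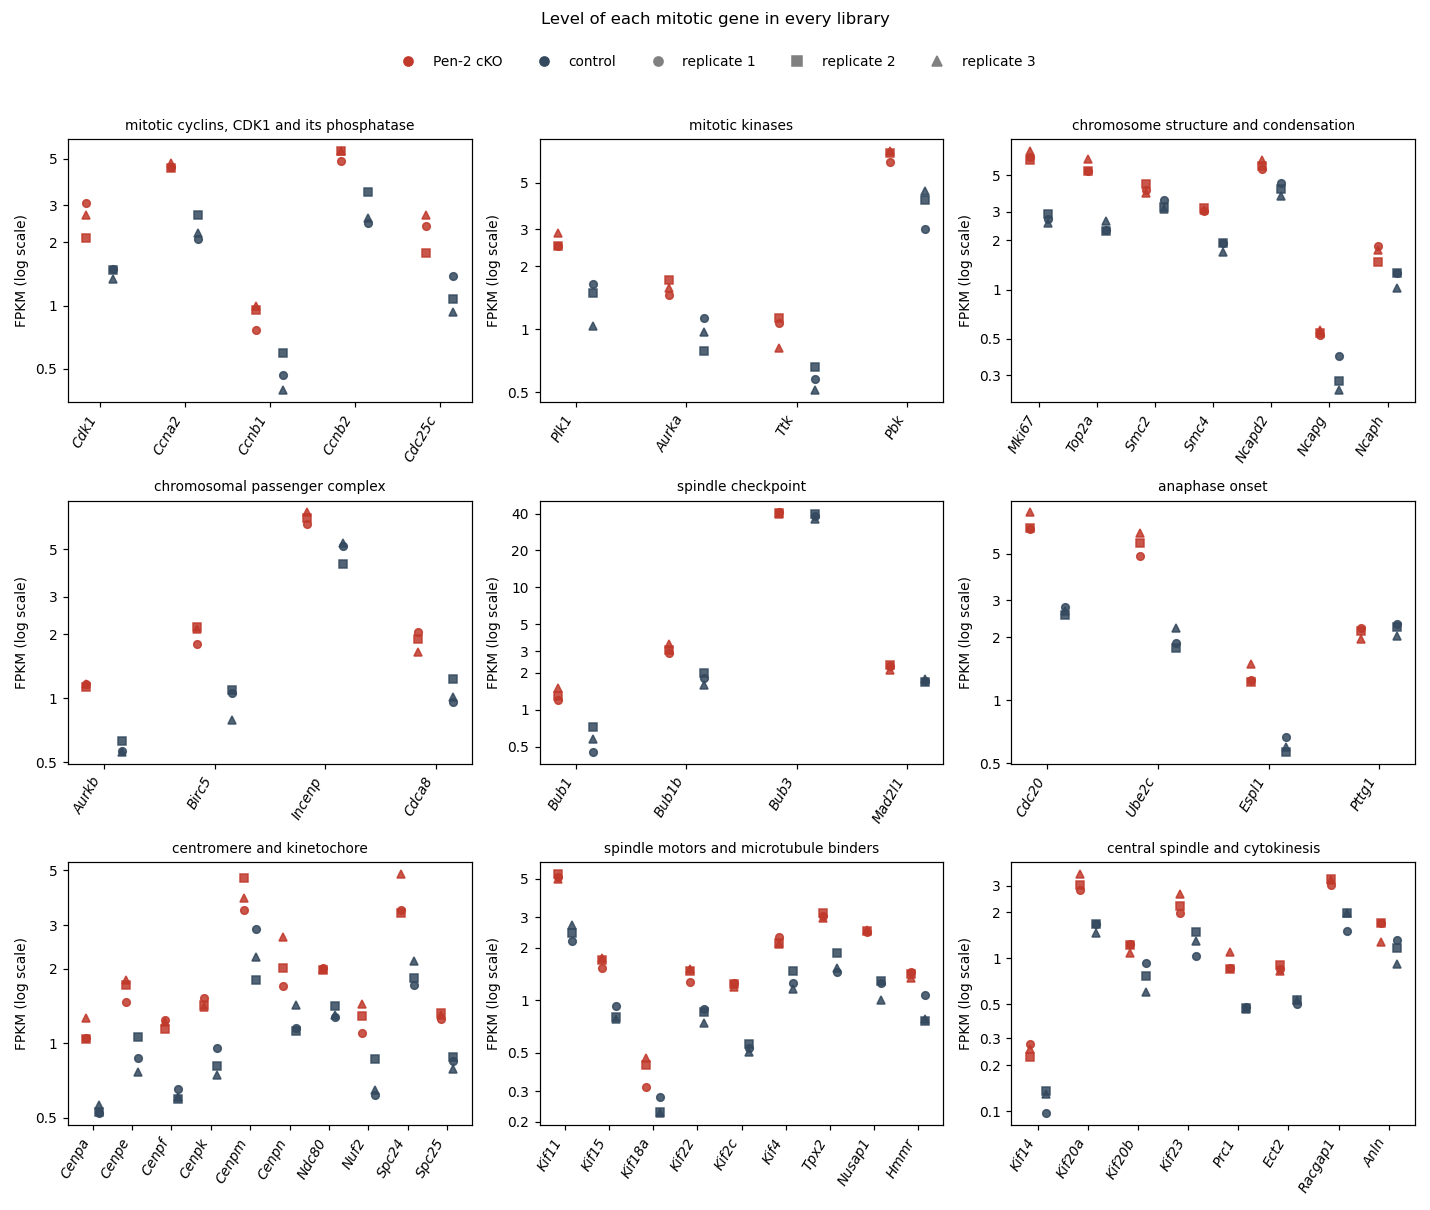
FPKM (log axis) of each of the 55 genes in every library, by role, with Pen-2 cKO libraries in red left of control libraries in blue and the marker shape giving the replicate number. The cKO points lie above the control points for 53 genes, and the groups overlap for *Pttg1* and *Anln*.

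Genes of chromosome structure and condensation held 2 of the clearest increases. *Mki67* encodes Ki-67, the coat protein of mitotic chromosomes that is used as a marker of dividing cells (ENSMUSG00000031004, mm10 chromosome 7, 135689788 to 135716379). It was 6.48, 6.15 and 7.03 FPKM in cKO cortex, set against 2.71, 2.91 and 2.56 FPKM in control cortex, so the lowest cKO library was above every control library by more than the whole spread of either group (log2 fold change 1.23, SE 0.10, adjusted p = 0.00107). *Top2a*, the topoisomerase that untangles sister chromatids (ENSMUSG00000020914, mm10 chromosome 11, 98992943 to 99024189), was 5.30, 5.33 and 6.29 FPKM in cKO cortex, set against 2.31, 2.27 and 2.63 FPKM in control cortex (log2 fold change 1.20, SE 0.11, adjusted p = 0.00204). Condensin subunits moved less. *Smc4*, an ATPase of the condensin ring, rose and was 3.04, 3.14 and 3.08 FPKM in cKO cortex, set against 1.94, 1.94 and 1.70 FPKM in control cortex (log2 fold change 0.70, adjusted p = 0.0136), and *Ncapd2*, a regulatory subunit, rose too, at 5.76 ± 0.356 FPKM in cKO and 4.12 ± 0.370 FPKM in control cortex (SD, n = 3 each; log2 fold change 0.48, adjusted p = 0.0399).

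The partner ATPase *Smc2* did not pass, at 4.08, 4.39 and 3.92 FPKM in cKO cortex, set against 3.55, 3.18 and 3.11 FPKM in control cortex (log2 fold change 0.32, adjusted p = 0.11). Its groups did not overlap, but the step between them was small. *Ncaph* was 1.84, 1.48 and 1.75 FPKM in cKO cortex, set against 1.27, 1.26 and 1.02 FPKM in control cortex (log2 fold change 0.48, adjusted p = 0.12). *Ncapg* was the lowest of the group, at 0.526, 0.542 and 0.563 FPKM in cKO cortex, set against 0.395, 0.277 and 0.243 FPKM in control cortex (log2 fold change 0.69, adjusted p = 0.129). Exons of *Ncapg* overlap those of *Lcorl* on the opposite strand over 13.4 % of their bases, with *Lcorl* at 2.11 FPKM in cKO and 2.12 FPKM in control cortex. The median log2 fold change of the 7 genes was 0.69, with 4 higher and none lower. Leaving out 1 library ended the call of *Smc4* in 3 and of *Ncapd2* in 6 of 6 fits, with highest adjusted p of 0.0694 and 0.123.

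Of CDK1, its cyclins and the phosphatase CDC25C, 4 of 5 genes rose. *Ccna2*, which encodes cyclin A2, the CDK partner of S and G2 phase, was 4.54, 4.51 and 4.78 FPKM in cKO cortex, set against 2.06, 2.69 and 2.21 FPKM in control cortex (log2 fold change 0.97, SE 0.12, adjusted p = 0.00617). *Ccnb2*, a B-type cyclin, was 4.88, 5.44 and 5.44 FPKM in cKO cortex, set against 2.46, 3.46 and 2.61 FPKM in control cortex (log2 fold change 0.88, adjusted p = 0.0166). *Cdk1* itself was 3.09, 2.09 and 2.71 FPKM in cKO cortex, set against 1.49, 1.47 and 1.33 FPKM in control cortex (log2 fold change 0.82, adjusted p = 0.0334). The 3 genes were thus separated between the groups, with cKO replicate 2 the lowest cKO library for *Cdk1*. *Cdc25c*, which removes the inhibitory phosphates from CDK1, was 2.29 ± 0.475 FPKM in cKO and 1.13 ± 0.231 FPKM in control cortex (log2 fold change 0.96, adjusted p = 0.0413). *Ccnb1*, the main mitotic B-type cyclin, had a similar step at a lower level and did not pass, at 0.767, 0.957 and 0.996 FPKM in cKO cortex, set against 0.465, 0.595 and 0.395 FPKM in control cortex (log2 fold change 0.79, adjusted p = 0.0731). Without 1 library the calls of *Cdk1* and *Cdc25c* each ended in 5 and that of *Ccnb2* in 2 of 6 fits, with highest adjusted p of 0.109, 0.137 and 0.0713. Exons of *Ccna2* overlap those of *Exosc9* on the opposite strand over 12.5 % of their bases, and whether counting used strand is not given in the sources used here. *Exosc9* was at 4.39 FPKM in cKO and 4.63 FPKM in control cortex.

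Among the mitotic kinases, *Pbk* and *Plk1* rose. *Pbk*, a kinase of dividing cells, had the highest level of the 4, at 6.29, 6.97 and 7.09 FPKM in cKO cortex, set against 3.01, 4.15 and 4.55 FPKM in control cortex (log2 fold change 0.80, SE 0.15, adjusted p = 0.0304). *Plk1*, the polo-like kinase of mitotic entry and centrosome maturation, was 2.48, 2.51 and 2.88 FPKM in cKO cortex, set against 1.64, 1.49 and 1.03 FPKM in control cortex (log2 fold change 0.89, adjusted p = 0.037). *Aurka*, the Aurora kinase of spindle poles, did not pass, with 1.46, 1.71 and 1.57 FPKM in cKO cortex, set against 1.13, 0.789 and 0.974 FPKM in control cortex (log2 fold change 0.67, adjusted p = 0.0658). *Ttk*, also known as MPS1, starts checkpoint signalling at unattached kinetochores and did not pass either, with 1.07, 1.12 and 0.813 FPKM in cKO cortex, set against 0.579, 0.661 and 0.510 FPKM in control cortex (log2 fold change 0.68, adjusted p = 0.0879). All 4 genes were higher in every cKO library than in any control library, as were 21.5 % of all tested genes. Leaving out 1 library ended the calls of *Pbk* in 4 and *Plk1* in 5 of 6 fits (highest adjusted p 0.105 and 0.107).

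All 4 genes of the chromosomal passenger complex, which corrects faulty attachments and later guides cytokinesis, rose. *Birc5*, which encodes survivin, was 1.80, 2.16 and 2.11 FPKM in cKO cortex, set against 1.06, 1.09 and 0.790 FPKM in control cortex (log2 fold change 0.98, SE 0.17, adjusted p = 0.0193). *Aurkb*, the kinase of the complex, was 1.17, 1.13 and 1.16 FPKM in cKO cortex, set against 0.565, 0.629 and 0.560 FPKM in control cortex (log2 fold change 0.88, adjusted p = 0.0203). In both genes the lowest cKO library stood clear of the highest control library. *Cdca8*, which encodes borealin, was 2.04, 1.90 and 1.64 FPKM in cKO cortex, set against 0.961, 1.23 and 1.02 FPKM in control cortex (log2 fold change 0.75, adjusted p = 0.0376). The scaffold *Incenp* was already the most abundant of the 4 in control cortex and rose least, at 7.0 ± 0.437 FPKM in cKO and 4.93 ± 0.565 FPKM in control cortex (log2 fold change 0.50, adjusted p = 0.0417). The calls ended without 1 library in 4, 4, 5 and 5 of 6 fits for *Birc5*, *Aurkb*, *Cdca8* and *Incenp* (highest adjusted p 0.0833, 0.0881, 0.139 and 0.128), with log2 fold changes of at least 0.41.

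The spindle checkpoint genes did not move as 1 block. *Bub1b*, which encodes the checkpoint protein BUBR1, was 2.93, 3.09 and 3.44 FPKM in cKO cortex, set against 1.81, 2.01 and 1.61 FPKM in control cortex (log2 fold change 0.77, SE 0.13, adjusted p = 0.0178). *Bub1*, the kinase that recruits checkpoint proteins to the kinetochore, was 1.20, 1.30 and 1.52 FPKM in cKO cortex, set against 0.453, 0.721 and 0.579 FPKM in control cortex (log2 fold change 1.09, adjusted p = 0.0253). Both rose, and their libraries did not overlap. *Mad2l1*, which encodes MAD2, the inhibitor of CDC20, was 2.28, 2.30 and 2.11 FPKM in cKO cortex, set against 1.70, 1.68 and 1.79 FPKM in control cortex and did not pass (log2 fold change 0.35, adjusted p = 0.114). *Bub3*, a WD-repeat protein that carries BUB1 and BUBR1 to kinetochores, was the most abundant of all 55 genes, at 40.8, 40.7 and 39.9 FPKM in cKO cortex, set against 37.9, 39.7 and 36.2 FPKM in control cortex (log2 fold change 0.09, adjusted p = 0.34). The difference in *Bub3* was close to the median of all tested genes. Without 1 library the call of *Bub1* ended in 6 and that of *Bub1b* in 3 of 6 fits (highest adjusted p 0.0917 and 0.0727).

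Genes of anaphase onset held the largest and the smallest fold change of the set. *Ube2c*, the ubiquitin-conjugating enzyme that works with the anaphase-promoting complex (ENSMUSG00000001403, mm10 chromosome 2, 164769898 to 164778822), was 4.87, 5.61 and 6.26 FPKM in cKO cortex, set against 1.88, 1.78 and 2.21 FPKM in control cortex (log2 fold change 1.46, SE 0.13, adjusted p = 0.00184). *Cdc20*, which activates that complex (ENSMUSG00000006398, mm10 chromosome 4, 118432901 to 118437352), was 6.56, 6.67 and 7.87 FPKM in cKO cortex, set against 2.80, 2.56 and 2.66 FPKM in control cortex (log2 fold change 1.36, SE 0.10, adjusted p = 0.000945). On this scale they rose 2.76-fold and 2.57-fold. *Espl1*, which encodes separase, the protease that cuts cohesin, was 1.24, 1.21 and 1.49 FPKM in cKO cortex, set against 0.670, 0.566 and 0.594 FPKM in control cortex (log2 fold change 0.99, adjusted p = 0.0176). *Pttg1*, which encodes securin, the inhibitor that separase is freed from, was 2.20, 2.14 and 1.97 FPKM in cKO cortex, set against 2.31, 2.23 and 2.03 FPKM in control cortex (log2 fold change -0.06, adjusted p = 0.823). It was the 1 tested member with a fold change below 0, and the values of its groups were interleaved. Exons of *Ube2c* overlap those of *Tnnc2* on the opposite strand over 22.8 % of their bases, but *Tnnc2* was at 0.0155 FPKM in cKO and 0.0771 FPKM in control cortex. The call of *Espl1* ended in 3 of 6 fits with 1 library left out (highest adjusted p 0.0756).

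At the centromere and kinetochore 6 of 10 genes rose. *Spc24*, a subunit of the NDC80 complex that grips microtubules, was 3.45, 3.35 and 4.84 FPKM in cKO cortex, set against 1.71, 1.83 and 2.15 FPKM in control cortex (log2 fold change 0.98, SE 0.17, adjusted p = 0.0202), with cKO replicate 3 well above the others. *Cenpf*, a large kinetochore protein of G2 and M phase, was 1.24, 1.14 and 1.22 FPKM in cKO cortex, set against 0.650, 0.595 and 0.604 FPKM in control cortex (log2 fold change 0.86, adjusted p = 0.0203). *Cenpa*, the histone H3 variant that marks centromeres, was 1.05, 1.03 and 1.27 FPKM in cKO cortex, set against 0.520, 0.524 and 0.564 FPKM in control cortex (log2 fold change 0.93, adjusted p = 0.0224). In each of these the cKO libraries formed a separate group. *Cenpe*, a kinesin that carries chromosomes to the spindle equator, *Cenpk*, of the inner kinetochore, and *Ndc80* rose by 0.83, 0.73 and 0.55 on the log2 scale (adjusted p = 0.0343, 0.0375 and 0.0408).

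The other 4 did not pass, each with adjusted p between 0.0586 and 0.074. They include the NDC80 complex subunits *Nuf2* and *Spc25*. *Nuf2* was 1.09, 1.28 and 1.44 FPKM in cKO cortex, set against 0.615, 0.863 and 0.645 FPKM in control cortex (log2 fold change 0.77), and *Spc25* was 1.25, 1.33 and 1.31 FPKM in cKO cortex, set against 0.844, 0.883 and 0.788 FPKM in control cortex (log2 fold change 0.57). The remaining inner kinetochore genes had wider spreads. *Cenpm* was 3.45, 4.66 and 3.88 FPKM in cKO cortex, set against 2.89, 1.81 and 2.24 FPKM in control cortex (log2 fold change 0.78). *Cenpn*, which reads the CENP-A nucleosome, was 1.71, 2.02 and 2.70 FPKM in cKO cortex, set against 1.15, 1.12 and 1.43 FPKM in control cortex (log2 fold change 0.73). No kinetochore gene had overlapping groups, and each had all cKO libraries above all control libraries, as had 21.5 % of all tested genes. Leaving out 1 library ended the call of *Cenpe*, *Cenpk* and *Ndc80* in all 6 fits, of *Cenpa* in 5, of *Cenpf* in 4 and of *Spc24* in 3 (highest adjusted p 0.121, 0.138, 0.142, 0.0844, 0.0902 and 0.0841).

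Spindle motors and microtubule binders rose in 7 of 8 tested genes. *Kif11*, the kinesin-5 motor that pushes the spindle poles apart (ENSMUSG00000012443, mm10 chromosome 19, 37376403 to 37421859), was 5.12, 5.31 and 4.98 FPKM in cKO cortex, set against 2.19, 2.44 and 2.69 FPKM in control cortex (log2 fold change 1.05, SE 0.11, adjusted p = 0.00284). *Nusap1*, which bundles spindle microtubules, was 2.48, 2.50 and 2.53 FPKM in cKO cortex, set against 1.25, 1.29 and 1.0 FPKM in control cortex (log2 fold change 1.03, adjusted p = 0.00755). *Kif2c*, the microtubule-depolymerising kinesin MCAK, was 1.25, 1.24 and 1.19 FPKM in cKO cortex, set against 0.528, 0.563 and 0.504 FPKM in control cortex (log2 fold change 1.07, adjusted p = 0.0102). These 3 rose 2.07-fold, 2.04-fold and 2.10-fold, and their cKO libraries lay close together. *Tpx2*, which activates Aurora A, and *Kif15*, another motor for spindle length, rose by 0.89 and 0.92 (adjusted p = 0.011 and 0.0147). The chromosome-arm kinesins *Kif22* and *Kif4* rose by 0.72 and 0.71 (adjusted p = 0.0397 and 0.0287).

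*Hmmr*, a spindle pole protein, did not pass, at 1.44, 1.41 and 1.33 FPKM in cKO cortex, set against 1.06, 0.763 and 0.777 FPKM in control cortex (log2 fold change 0.64, adjusted p = 0.0738). *Kif18a*, which damps chromosome oscillations, was too low to be tested, at 0.318, 0.426 and 0.465 FPKM in cKO cortex, set against 0.276, 0.229 and 0.223 FPKM in control cortex. Its cKO values were nonetheless all above its control values. Exons of *Kif4* overlap those of *Pdzd11* on the opposite strand over 15.1 % of their bases, and *Pdzd11* was at 6.96 FPKM in cKO and 5.90 FPKM in control cortex. The calls of *Kif22*, *Kif4*, *Kif15*, *Kif2c* and *Tpx2* ended in 6, 5, 3, 2 and 1 of 6 fits with 1 library left out (highest adjusted p 0.138, 0.113, 0.0709, 0.0534 and 0.0554).

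For the central spindle and cytokinesis, 4 of 7 tested genes rose. *Kif20a*, a kinesin of the central spindle, was 2.79, 3.01 and 3.57 FPKM in cKO cortex, set against 1.68, 1.69 and 1.46 FPKM in control cortex (log2 fold change 0.91, SE 0.13, adjusted p = 0.0119). *Racgap1*, which forms the centralspindlin complex with *Kif23*, was 3.04, 3.28 and 3.28 FPKM in cKO cortex, set against 1.5, 1.98 and 1.99 FPKM in control cortex (log2 fold change 0.79, adjusted p = 0.0216). *Prc1*, which crosslinks the antiparallel microtubules of the midzone, was 0.869, 0.846 and 1.10 FPKM in cKO cortex, set against 0.479, 0.476 and 0.464 FPKM in control cortex (log2 fold change 0.85, adjusted p = 0.04). The control values of *Prc1* were all under 0.5 FPKM, so that it was tested only because of its cKO values, and with no filter it did not pass (adjusted p = 0.0598). Without *Prc1*, 3 of 6 tested genes of the group rose. *Kif23* itself was 2.28 ± 0.323 FPKM in cKO and 1.28 ± 0.224 FPKM in control cortex (log2 fold change 0.79, adjusted p = 0.0439). *Ect2*, the exchange factor that switches on RhoA at the cleavage site, did not pass, at 0.851, 0.909 and 0.826 FPKM in cKO cortex, set against 0.503, 0.533 and 0.532 FPKM in control cortex (log2 fold change 0.63, adjusted p = 0.0708). *Kif20b* was 1.24, 1.22 and 1.09 FPKM in cKO cortex, set against 0.939, 0.772 and 0.607 FPKM in control cortex (log2 fold change 0.57, adjusted p = 0.127). *Anln* encodes anillin, the scaffold of the contractile ring, which oligodendrocytes also express as part of myelin.

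*Anln* was 1.70, 1.70 and 1.28 FPKM in cKO cortex, set against 1.31, 1.17 and 0.920 FPKM in control cortex (log2 fold change 0.43, adjusted p = 0.223), so that cKO replicate 3 lay inside the control range. *Kif14*, a motor of the midbody, was too low to be tested, at 0.275, 0.226 and 0.255 FPKM in cKO cortex, set against 0.0966, 0.135 and 0.130 FPKM in control cortex. If the longest annotated transcript of *Kif14* was the one counted, its values stand for 52.8 to 61.9 fragments in the cKO libraries and 18.7 to 29.0 fragments in the control libraries. Exons of *Kif20a* overlap those of *Cdc23* on the opposite strand over 29.3 % of their bases, with *Cdc23* at 6.86 FPKM in cKO and 6.47 FPKM in control cortex. Those of *Prc1* overlap *Rccd1* over 11.1 % (*Rccd1* at 0.691 FPKM in cKO and 0.657 FPKM in control cortex). Without 1 library the calls of *Prc1* and *Kif23* ended in 6, of *Racgap1* in 4 and of *Kif20a* in 1 of 6 fits (highest adjusted p 0.119, 0.126, 0.0899 and 0.0534).

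**Figure D2:**
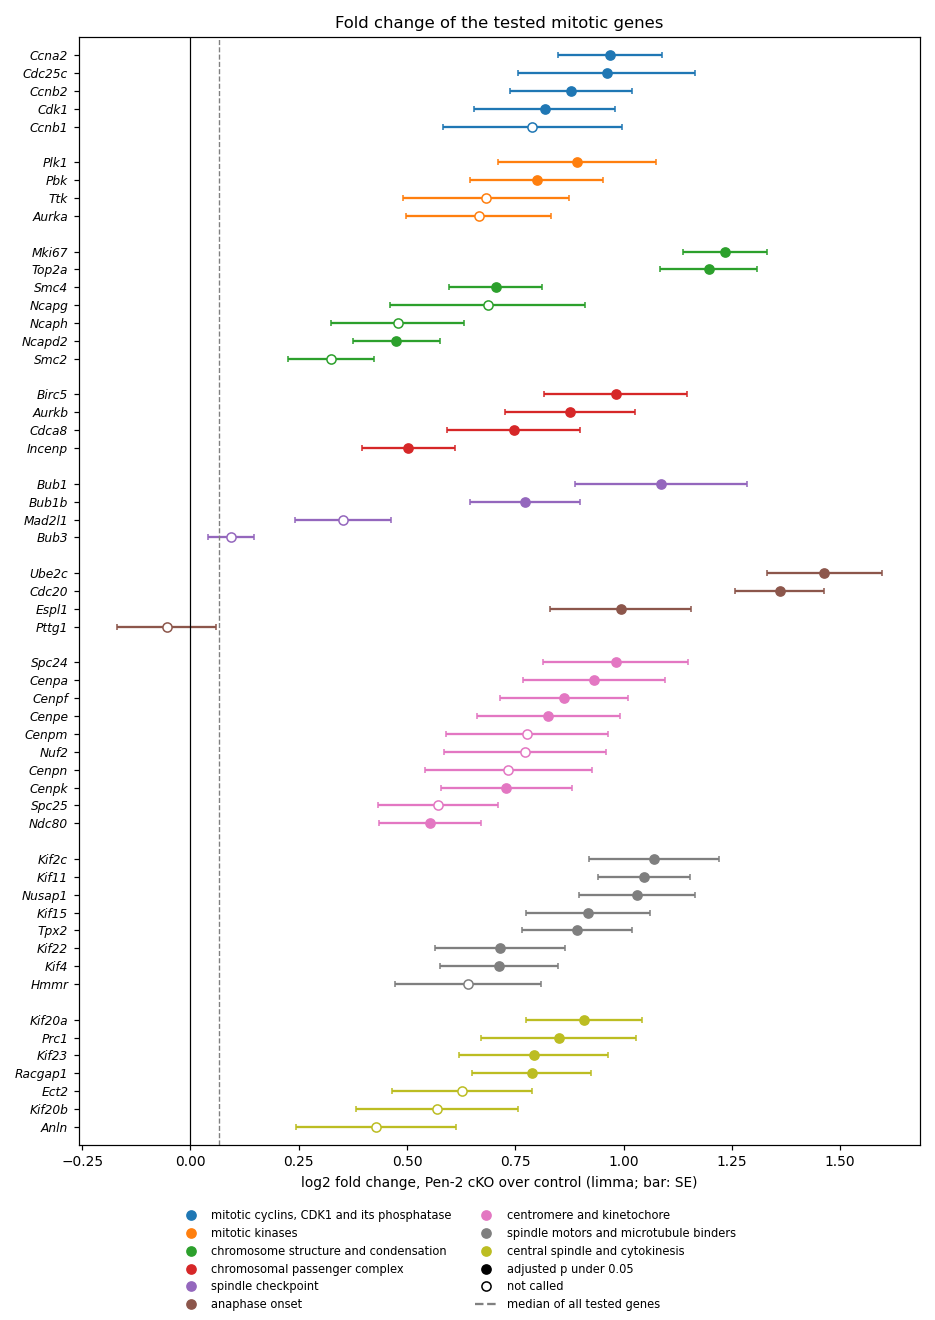
Log2 fold change of each of the 53 tested genes, Pen-2 cKO over control, coloured by role (points: limma estimate; bars: SE; filled: adjusted p under 0.05; dashed line: median of all tested genes). *Ube2c* lies highest at 1.46, *Pttg1* lies at -0.06, and 36 points are filled.

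The promoters of the members share letters that the choice of genes did not use. Late cell cycle genes are known to be controlled through the cell cycle genes homology region (CHR), bound by the MuvB complex, often next to CCAAT boxes, bound by NF-Y. The RefSeq promoter table (GRCm38.p6, which has the mm10 coordinates) held 51 windows of 250 bases before to 50 after the start for 46 of the 55 members. The promoters of the 3 members with the smallest p among those that hold both motifs are shown in lower case, with each TTTGAA and CCAAT on either strand in capitals. The window of *Pttg1*, added after its values were seen, holds neither and is shown beside them. It lies wholly within the range deposited for *Pttg1* (43420250 to 43426251), so the bases before that range were not searched. Whether they hold the motifs is not known from this window.

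Cdc20, chr4:118437294-118437593, minus strand: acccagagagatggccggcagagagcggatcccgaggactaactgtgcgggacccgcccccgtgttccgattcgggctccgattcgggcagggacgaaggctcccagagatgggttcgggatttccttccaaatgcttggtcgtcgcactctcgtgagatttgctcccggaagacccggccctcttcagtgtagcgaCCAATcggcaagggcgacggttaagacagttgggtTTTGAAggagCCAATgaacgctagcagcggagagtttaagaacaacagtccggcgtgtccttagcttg

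Ube2c, chr2:164769679-164769978, plus strand: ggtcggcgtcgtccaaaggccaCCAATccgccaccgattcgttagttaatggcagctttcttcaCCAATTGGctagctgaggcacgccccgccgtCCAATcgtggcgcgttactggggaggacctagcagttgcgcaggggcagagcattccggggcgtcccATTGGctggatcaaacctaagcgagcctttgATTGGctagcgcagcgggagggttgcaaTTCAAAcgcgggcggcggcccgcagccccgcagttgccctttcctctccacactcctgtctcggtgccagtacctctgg

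Mki67, chr7:135716330-135716629, minus strand: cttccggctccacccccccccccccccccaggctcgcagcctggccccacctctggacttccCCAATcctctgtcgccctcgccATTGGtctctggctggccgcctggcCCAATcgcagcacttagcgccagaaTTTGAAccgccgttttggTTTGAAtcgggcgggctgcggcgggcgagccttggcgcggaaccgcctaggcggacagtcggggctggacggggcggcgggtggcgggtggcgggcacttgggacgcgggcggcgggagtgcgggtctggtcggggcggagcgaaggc

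Pttg1, chr11:43425932-43426231, minus strand: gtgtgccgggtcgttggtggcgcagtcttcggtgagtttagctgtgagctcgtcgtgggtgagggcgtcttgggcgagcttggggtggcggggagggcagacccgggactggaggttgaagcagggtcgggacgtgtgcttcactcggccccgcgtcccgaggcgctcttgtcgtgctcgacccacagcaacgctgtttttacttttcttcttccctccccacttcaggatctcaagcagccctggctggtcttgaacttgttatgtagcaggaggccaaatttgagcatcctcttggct

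The CHR letters TTTGAA stood on either strand in a promoter of 34 of the 46 members (73.9 %), against 20.2 % of the 27025 genes in the table, counting each gene with a match in any of its windows. CCAAT stood in 34 of 46 (73.9 %), against 41.1 % of genes, and both in 29 of 46 (63.0 %), against 7.97 %. At least 2 CCAAT boxes were found in a single window in 22 members (47.8 %), against 13.3 % of genes. A CCAAT on each strand can overlap in the letters CCAATTGG, as in *Ube2c*, and was counted as 2. The CHR variant TTTAAA stood in 10 members (21.7 % against 14.9 %). The E2F letters TTTCCCGC and TTTGGCGC stood in 2 and 3 members (4.35 % against 1.24 %, and 6.52 % against 0.585 %).

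The windows reach only from 250 bases before the start to 50 after, so every match lies near the start by construction. Within them the median first base was at -16.0 for TTTGAA over 48 matches and at -76.0 for CCAAT over 82 matches, counted from the start. Positions were not counted over all promoters, and a site in overlapping windows of the same gene was counted in each. In *Cdc20* TTTGAA began at -18, between CCAAT boxes at -53 and -8. In *Ube2c* it began at -29 on the opposite strand, after 6 CCAAT matches. *Mki67* had TTTGAA at -116 and -98 and CCAAT matches at -188, -166 and -141. Both motifs stood in 19 of 27 members that rose (70.4 %) and in 9 of 17 that were tested and did not pass (52.9 %). *Bub3*, with a log2 fold change of 0.09, had both, and *Nusap1*, with 1.03, had none of the 5 motifs. *Mad2l1*, *Ncaph*, *Nuf2* and *Pttg1* also had none in these windows. A match shows letters and not binding.

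Other cell division genes were counted in the same way. Of 63 further kinetochore, centromere and spindle genes, 56 were tested, 14 rose and none fell (median log2 fold change 0.45). Among those that rose, *Kntc1*, *Sgo1*, *Dlgap5* and *Aspm* were under 0.5 FPKM in all control libraries. They were tested only because of their cKO values. *Kif18b*, a microtubule plus-end kinesin, was 1.79, 1.96 and 2.08 FPKM in cKO cortex, set against 0.648, 0.679 and 0.802 FPKM in control cortex (log2 fold change 1.34, adjusted p = 0.00379). *Ckap2l*, a spindle protein of neural progenitors, was 3.68, 4.21 and 4.27 FPKM in cKO cortex, set against 1.52, 1.78 and 1.92 FPKM in control cortex (log2 fold change 1.18, adjusted p = 0.00343). *Fam83d*, which brings casein kinase to the spindle, was 1.32, 1.32 and 1.39 FPKM in cKO cortex, set against 0.640, 0.576 and 0.557 FPKM in control cortex (log2 fold change 1.07, adjusted p = 0.00953). In all 3, which were chosen for the smallest p in the list, the lowest cKO library was above the highest control library. The same held for 38 of the 63 genes, against 15.6 % of all genes with any value above 0. Of 17 genes of the anaphase-promoting complex and its activators and inhibitors none passed (median 0.04). Of 13 cohesin genes none passed (median 0.05). With 3.67 % of all tested genes higher, both counts are near the background. At an unadjusted p under 0.05, 2 anaphase-promoting complex genes and 2 cohesin genes would have been counted.

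DNA replication genes, which are active a phase earlier, rose in 11 of 37 tested, with none lower (median 0.45). *Mcm5*, a subunit of the replicative helicase, was 8.12, 8.03 and 8.74 FPKM in cKO cortex, set against 4.35, 4.43 and 5.13 FPKM in control cortex (log2 fold change 0.83, adjusted p = 0.004). *Uhrf1*, which maintains DNA methylation behind the fork, was 2.96, 3.23 and 3.53 FPKM in cKO cortex, set against 1.51, 1.64 and 1.67 FPKM in control cortex (log2 fold change 0.97, adjusted p = 0.00522). *Mcm2*, another helicase subunit, was 2.32, 2.41 and 2.78 FPKM in cKO cortex, set against 1.12, 1.26 and 1.37 FPKM in control cortex (log2 fold change 0.95, adjusted p = 0.011). Among G1 regulators 4 of 12 tested rose and none fell (median 0.38). *Ccnd1*, which encodes cyclin D1, was 18.1, 19.4 and 20.3 FPKM in cKO cortex, set against 7.63, 6.61 and 10.5 FPKM in control cortex (log2 fold change 1.24, adjusted p = 0.0066). The CDK inhibitors *Cdkn1a* and *Cdkn2c* also rose, at 22.1 ± 0.926 FPKM in cKO and 14.9 ± 0.493 FPKM in control cortex and at 3.98 ± 0.448 FPKM in cKO and 2.34 ± 0.209 FPKM in control cortex (adjusted p = 0.00312 and 0.0193). Of 20 tested transcription factors of late cell cycle genes, *E2f2* alone rose, at 0.773, 0.783 and 0.755 FPKM in cKO cortex, set against 0.416, 0.313 and 0.353 FPKM in control cortex (log2 fold change 0.92, adjusted p = 0.0358; median of the list 0.14). The control values of *E2f2* were all under 0.5 FPKM, so that it was tested only because of its cKO values. *Foxm1* and *Mybl2*, activators of mitotic genes that are named here after their values were seen, were 1.24 ± 0.459 FPKM in cKO and 0.954 ± 0.253 FPKM in control cortex and 1.03 ± 0.293 FPKM in cKO and 0.581 ± 0.115 FPKM in control cortex and did not pass (adjusted p = 0.624 and 0.153). Differences between lists were not tested.

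**Figure D3:**
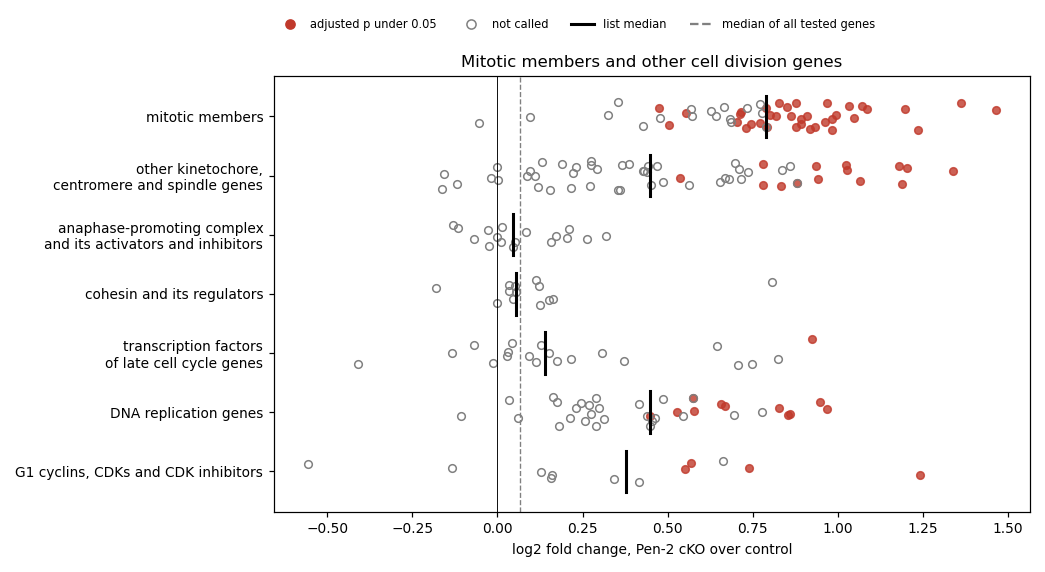
Log2 fold change, Pen-2 cKO over control, of every tested gene (points; filled red: adjusted p under 0.05) in the mitotic set and in 6 lists of other cell division genes, with list medians (bars) and the median of all tested genes (dashed). The median is 0.79 for the mitotic genes, 0.45 for DNA replication and 0.05 for cohesin.

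Markers of several cell types differed between the same libraries, and their part in the mitotic values was not tested. The counts below stand beside 3.67 % of all tested genes higher and 1.87 % lower. Of oligodendrocyte precursor markers, 9 of 12 tested rose and none fell, with sums of 319 to 393 FPKM in the cKO libraries and 137 to 165 FPKM in the control libraries. *Olig2*, the lineage factor, was 41.9 ± 4.62 FPKM in cKO and 14.1 ± 1.42 FPKM in control cortex. The highest cKO means of the list were those of *Olig1*, *Gpr17*, *Olig2* and *Sox10*, at 113, 76.4, 41.9 and 37.8 FPKM. Their control means were 51.8, 21.2, 14.1 and 9.53 FPKM, and all of them rose. *Pdgfra*, *Cspg4* and *Vcan* did not pass (log2 fold change 0.27, 0.53 and 0.32, adjusted p = 0.102, 0.064 and 0.167). *Pdgfra*, the growth factor receptor of dividing precursors, was 12.9 ± 1.13 FPKM in cKO and 10.7 ± 0.266 FPKM in control cortex. In all 12 genes the cKO libraries lay above all control libraries. Of new and myelinating oligodendrocyte markers, 9 of 11 tested rose and none fell, with sums of 125 to 195 FPKM in the cKO libraries and 28.9 to 45.9 FPKM in the control libraries. Among those that rose, *Fa2h* was under 0.5 FPKM in all control libraries and was tested only because of its cKO values. Of microglia markers, 2 of 11 tested rose and none fell, with sums of 113 to 168 FPKM in the cKO libraries and 80.7 to 95.2 FPKM in the control libraries. Of endothelium and pericyte markers, 2 of 11 tested rose and none fell, with sums of 105 to 113 FPKM in the cKO libraries and 88.1 to 92.0 FPKM in the control libraries, and of meningeal fibroblast markers, 3 of 10 tested rose and none fell, with sums of 65.7 to 110.4 FPKM in the cKO libraries and 34.9 to 51.2 FPKM in the control libraries. Choroid plexus and ependymal markers had none of 7 tested that passed.

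Of astrocyte markers, none rose and 9 of 12 fell, with sums of 167 to 273 FPKM in the cKO libraries and 493 to 587 FPKM in the control libraries. Of radial glia and intermediate progenitor markers, 1 of 9 tested rose and 2 fell, with sums of 103 to 137 FPKM in the cKO libraries and 326 to 332 FPKM in the control libraries. In that sum *Fabp7* supplied 71.8 ± 10.2 FPKM in cKO and 283 ± 1.40 FPKM in control cortex (SD, n = 3 each), and the other 11 genes summed to 37.0 to 53.6 FPKM in the cKO libraries and 44.6 to 47.7 FPKM in the control libraries. The median log2 fold change of the list was -0.00. Of subventricular neuroblast markers, 1 of 11 tested rose and 1 fell, with sums of 283 to 312 FPKM in the cKO libraries and 339 to 404 FPKM in the control libraries. *Cd24a* made up most of it, and the other 10 genes summed to 70.5 to 80.6 FPKM in the cKO libraries and 74.2 to 92.2 FPKM in the control libraries. Of the 11 postmitotic neuron markers, 1 rose and 1 fell (median log2 fold change -0.06). Over all tested genes 3.67 % rose and 1.87 % fell, so a count of 1 in lists of this size is near the background. No marker in these lists was at 0 in all libraries. The choroid and meningeal sums were highest in cKO replicate 3, but without *Dcn* the meningeal sums were 58.3, 37.0 and 53.8 FPKM in the cKO libraries. When cKO replicate 3 was left out, 20 members rose, none fell and the median log2 fold change was 0.77. The meningeal sums of cKO replicates 1 and 2, at 96.4 and 65.7 FPKM, were still above those of all control libraries. What part these tissues have in the mitotic values was not tested.

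**Figure D4:**
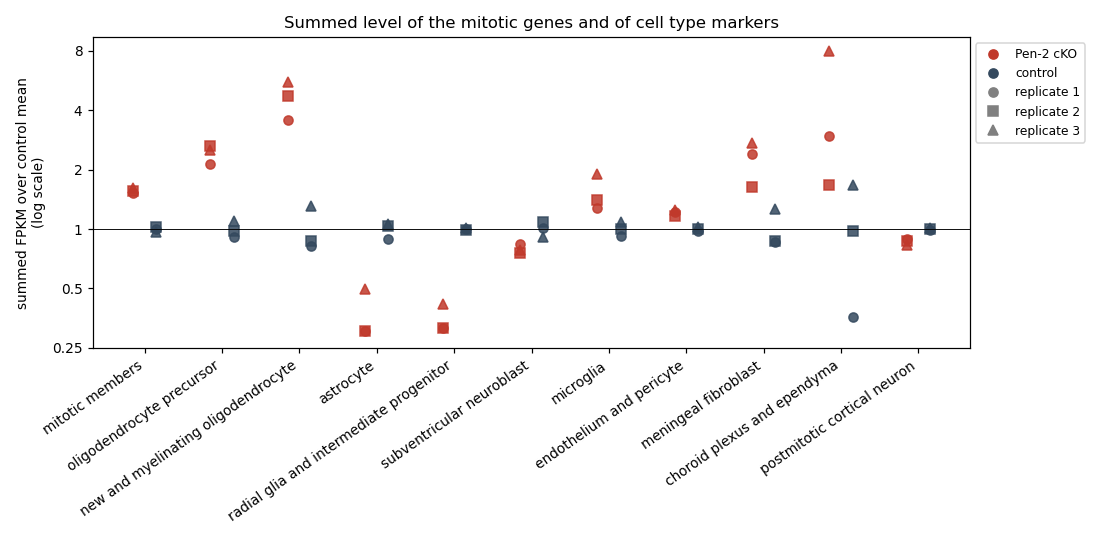
Summed FPKM of the 55 mitotic genes and of 10 cell type marker lists in each library over the mean of the control libraries (log axis; red: Pen-2 cKO, left; blue: control; shape: replicate). The mitotic genes lie close together within each group, while the choroid plexus list, nearly all *Ttr*, spans 333, 190.1 and 901 FPKM in cKO libraries and 40.6, 111 and 188 FPKM in control libraries.

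The authors' deposited table calls 32 of the 55 members up and none down, against 1.71 % of its 34745 genes up, by a test that it does not name. That total includes 11414 genes at 0 in all libraries, whereas no member was at 0 in all of them. Of these, 27 also rose here. The authors' deposited table calls up *Ccnb1*, *Ncapg*, *Nuf2*, *Hmmr* and *Kif14*, which were not called or not tested here. It gives no call to 9 genes that rose here, among them *Smc4*, *Racgap1* and *Kif4*. Their q there was nonetheless 0.00729, 0.000315 and 0.02. The authors' group values for them were 3.74, 3.40 and 2.46 FPKM in cKO and 1.95, 1.83 and 1.27 FPKM in control cortex. These cKO group values lie above every cKO library of the same genes, so they are not on the scale of the values per library. How the group values were formed is not given in the sources used here. For *Cdc25c*, *Incenp*, *Cenpk* and *Ndc80*, also without a call, q was 0.058, 0.0737, 0.459 and 0.0799. The rule for a call is not stated and differs from the one used here. Every member called up there had q under 0.05. Members with q under 0.05 and no call all had a smaller ratio of deposited cKO to control level than any member called up.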

How the data were processed

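The authors deposited FPKM for each library, per the file headers, in a table whose name speaks of counts. The submitters' processing notes name the build mm10; for the aligner, counter and annotation, nothing is stated (not given in the sources used here). P-values (q) and calls in the authors' deposited table come without a stated test and were only compared. In genes with a single annotated transcript of at least 1000 bases, 93.1 to 94.1 % of low values lay within 0.01 of whole fragments, which gave the depths. Fragments did not come out whole for every gene, since the transcript length behind each value is not given, so no count test was run.

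The 14147 genes that reached 0.5 FPKM in 3 or more libraries were tested with limma 3.58.1 in R 4.3.3 (trend, robust) on log2(FPKM + 0.1), which understates changes of low genes, with group as the only term and Benjamini-Hochberg adjustment over all of them; an adjusted p under 0.05 was called. The fit was tested on simulated data in which 200 of 14147 genes were changed. It recovered 59.7 % of 1.5-fold, 77.6 % of 2-fold and 93.9 % of 4-fold changes. Of its 166 calls, 12 were unchanged genes. The members and lists were chosen with earlier results of these data known. Values per library are given for the 3 members with the smallest p in each of 9 roles and for every member not called or not tested, and of other lists up to 3 called genes are named. All list symbols were matched, 3 of them (*Sgo1*, *Sgo2a*, *Knl1*) by gene ID. Coordinates are the table's. Exon overlaps come from GENCODE M21. Python 3.11.15, pandas 2.3.3 and matplotlib 3.10.9 were used.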

Additional observations from a re-analysis of the deposited data

How the results depend on the processing

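Across 16 alternatives no member changed sign and no member was called lower. Members called higher numbered 36 as reported, 23 with no filter on low values, 16 with the replicate block and 10 to 25 with 1 library left out, each of which leaves a smaller fit. In the other settings the number was 27 to 40. Their median log2 fold change (0.79) was 0.48 with a pseudocount of 1, which shrinks low genes by construction, 0.73 with median-ratio scaling and 0.77 to 0.87 with 1 library left out. Over all genes, 519 were higher as reported, 323 with no filter, 314 with median-ratio scaling, 907 with equal sums, 290 with the replicate block and 135 to 582 with 1 library left out. Those lower numbered 264, 166 with the block and 85 to 309 with 1 library left out. The split was 314 higher and 343 lower with median-ratio scaling and 351 and 346 with upper-quartile scaling. Of other cell division genes 30 were higher, 16 with the block and 9 to 24 with 1 library left out; none was lower, but 1 was with neither trend nor robust estimation and 0 to 1 with 1 library left out. Where no construction is named, the cause was not tested.

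Samples of equal number correlated at 0.061, 0.012 and 0.1 in their deviations from the group means, and samples of unlike number at -0.091 to 0.056. The replicate number was not taken as a pairing, because nothing in the labels ties a cKO number to a control number. These correlations do not settle whether the samples were paired. Of the 36 calls, 7 held with each library left out and 15 in all 10 other settings. A member that did not pass is not shown to be equal between groups.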

Other observations

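Across the 53 tested members, the control level and the log2 fold change were not ordered together (Spearman's rho -0.03, Pearson's r -0.23 with the log2 level), a description across genes of the same libraries. Of the 17 members that did not pass, 14 had an unadjusted p under 0.05 and 9 an adjusted p under 0.1. The coefficient of variation had a median over the 55 genes of 8.01 % among the cKO libraries and 11.96 % among the control libraries. The 55 genes lie on 18 chromosomes. Pseudogenes were searched only by a member's name with the ending -ps, so copies under other names were not looked for. Those found were low: *Ccnb2-ps* was at most 0.0954 FPKM in any library, and *Kif4-ps* and *Kif22-ps* were listed at 0.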
